A study of Mus musculus with 2 samples.

Results

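The Rab genes encode the largest branch of the Ras superfamily of small GTPases, and their protein-coding transcripts were followed in mouse embryonic stem cells by metabolic labeling of RNA. Members were all genes whose symbol is Rab, a number and at most one further letter and which have a transcript annotated as protein-coding in GENCODE M21. The table of values held 138 such transcripts from 59 genes, which are all 59 Rab genes of that annotation and belong to 21587 genes with a coding transcript in the table. They lie on 18 chromosomes, with 7 on chromosome 17, 6 on chromosome 9 and 5 on chromosome 11. Membership was set by names alone and by no measured value, though earlier results of these data were known when the members were chosen.

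A Rab protein is a molecular switch. It binds GTP on the surface of one membrane compartment, recruits effectors such as motors and tethers there, and returns to the cytosol when GTP has been hydrolysed. Exchange factors load the GTP, GTPase-activating proteins end the active state, and a lipid added to cysteines at the end of the protein anchors it in the membrane until GDP dissociation inhibitor extracts it. Different Rabs mark different steps of traffic, from endoplasmic reticulum to Golgi, endosomes, lysosomes, secretory granules and cilia, and the receptors and adhesion proteins of stem cells pass through these compartments.

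The cells were wild type (WT) embryonic stem cells of the DTCM23/49 XY line, depleted of feeders and grown on gelatin with serum and leukemia inhibitory factor. All of them received 200 µM 4-thiouridine (4sU), a uridine analogue that enters newly made RNA, for 10 min, and RNA with 4sU was then biotinylated and captured. The captured RNA (labeled) and the RNA left in the supernatant (unlabeled, called preexisting in one label and total in another) were each sequenced as 1 library of biological replicate 1, from 1 cell line in 1 condition. Other replicates and untreated cells were not analysed here, so every difference below is a value of these 2 libraries with no replicate check and no test.

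Each transcript has an exon value and, where it is spliced, an intron value in each library. The authors called them TPM, but the values of a library added up to 10000003 in labeled and 9999998 in unlabeled RNA, which is 10 times what TPM adds up to. They are per length and relative within a library, so that neither read depth nor the absolute amount of RNA is known, and counting error cannot be given. A value below is in this deposited unit. The value of a gene is the sum over its coding transcripts. How reads of shared exons were divided among transcripts cannot be seen, so shares between genes depend on this sum. The ratio of labeled to unlabeled was taken as log2 after adding 0.1 to each value, and centred on the median of all coding genes with a mean value of at least 10 for exons (median −0.40 before centring) or 1 for introns (median 1.87). A centred value of 0 thus describes the median gene, and a gene was called where its ratio differed at least 2-fold from that gene.

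The label of the cells was set against markers of pluripotency. All 9 listed, among them Pou5f1, Nanog, Esrrb and Sall4, had mean exon values from 90.4 to 5577. Of the 4 neural markers 3 reached 10, with Tubb3 at 145, Pax6 at 69.6 and Nes at 20.5. None of the 4 endoderm and none of the 3 mesoderm markers did, and Gata6, Sox17 and Foxa2 were listed at 0 in both libraries. Of 5 fibroblast markers 1 reached 10 (Thy1, 10.2), and Lum was listed at 0.

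Rab paralogs are alike in protein but can be told apart in bases, shown here for the last 30 coding bases. These bases encode the cysteines that carry the lipid anchor. They are printed for some of the paralogs whose values are compared below, 5′ to 3′ and without the stop codon, from the most abundant GENCODE M21 transcript (GRCm38) with a complete coding sequence, with cysteine codons in capitals.
Rab1a: ccagtcaagcagtcaggtggaggcTGCTGC
Rab1b: cctgtgaagcctgctagcggtggcTGCTGC
Rab5a: cagccagccagaagccagTGTTGTagtaac
Rab5b: cagcagaacaagagccagTGTTGTagcaac
Rab7: gccaaggcctccgcagaaagcTGCagtTGT
Rab7b: tctccaggccagccaaagagcagaTGCTGC
Rab8a: aggaccagcttcttccggTGCagtctcctg
Rab8b: aagaccagtttcttccgcTGTtctctgctt
Rab11a: aagccaaaggtgcagTGCTGTcagaacatc
Rab11b: cccaacaagctgcagTGCTGCcagagcctg
Rab25: ggggaaaagagggccTGTTGCatcagcctc
Of the 59 genes, 15 ended in adjacent cysteine codons and 20 in cysteine codons separated by one other codon. A further 15 had adjacent cysteine codons followed by 1 to 3 more codons, in 3, 6 and 6 genes, and 8 had a cysteine codon followed by 3 others. The transcript of Rab18 chosen here was the one member without a cysteine codon at its end. Between paralogs the coding sequences were 60.2% (Rab39 and Rab42) to 78.0% (Rab3b and Rab3d) identical over the aligned bases, with 77.6% for Rab1a and Rab1b and 78.0% for Rab8a and Rab8b. No pair of paralogs shared a 50-base word, meaning any run of 50 bases, in its coding sequence. The Rab11a coding sequence compared has only 261 bases, against 582 for Rab11b.

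Levels differed widely among the members. They are of bulk RNA, in which fewer cells with a transcript and less of it per cell cannot be told apart. Rab7, which drives the maturation of late endosomes and their fusion with lysosomes, stood first with 3725 in labeled and 10547 in unlabeled RNA (ENSMUSG00000079477, chr6:87999106-88045270, minus strand, GRCm38). It made up 42.1% of the summed Rab exon value of labeled RNA and 49.0% of that of unlabeled RNA. Rab1a, which directs vesicles from endoplasmic reticulum to Golgi, followed with 1682 and 5309 (chr11:20201432-20226856, plus strand), and Rab6a, which acts in return traffic through the Golgi, with 337 and 1497 (chr7:100607410-100641268, plus strand). These 3 genes held 64.9% of the labeled and 80.6% of the unlabeled sum, and the first 9 genes held 84.7% and 92.4%. The median mean exon value of the 59 members was 24.9, against 8.11 over all 21587 genes, and Rab7 lay at percentile 99.8 of them.

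**Figure D1:**
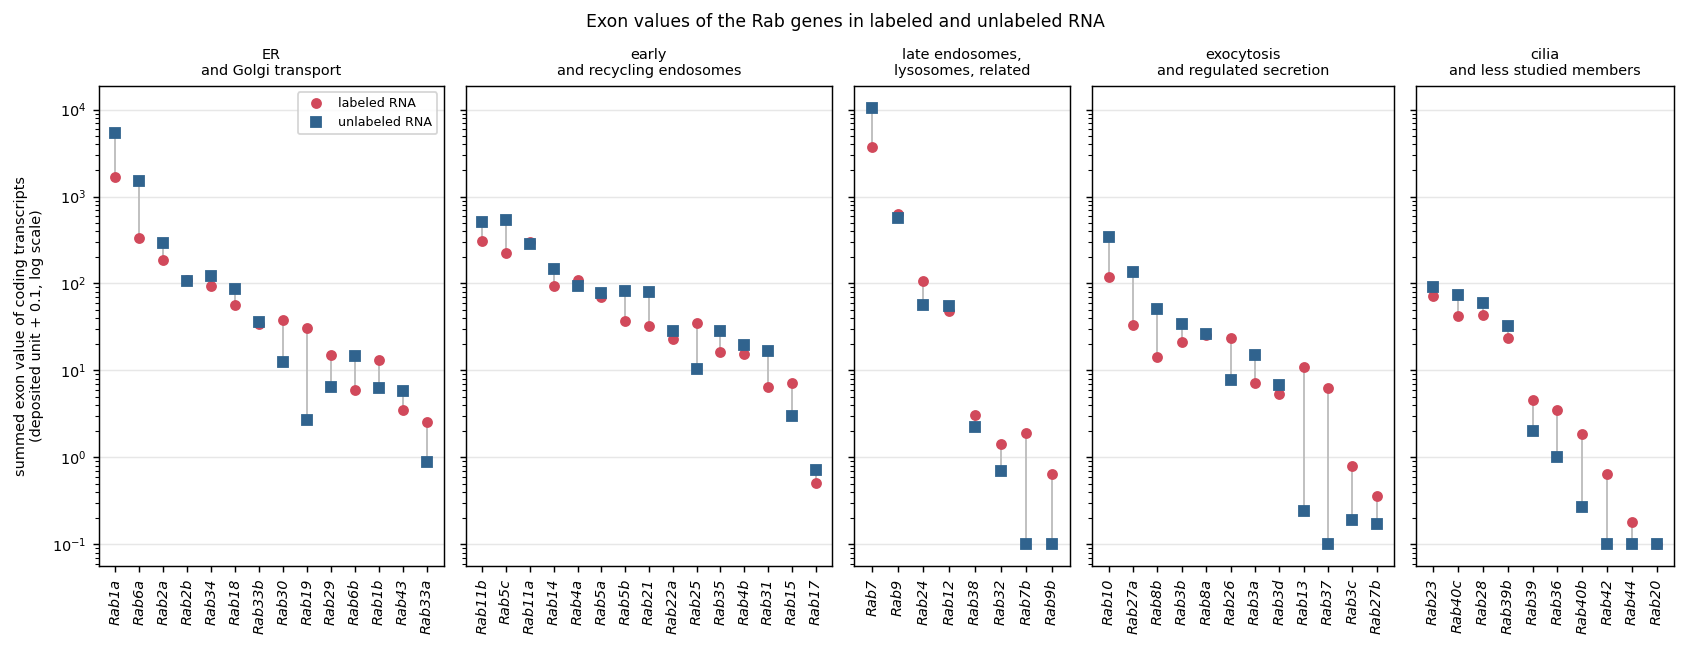
Exon values of all 59 Rab genes in labeled RNA (red circles) and unlabeled RNA (blue squares), summed over coding transcripts, in the deposited unit with 0.1 added so that 0 can be drawn, on a log axis; each point is 1 library and genes are grouped by role. Rab7 reaches 10547 in unlabeled RNA, and unlabeled lies above labeled for Rab7, Rab1a and Rab6a but below it for Rab19, Rab25 and Rab26.

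The first ranks were the same for single transcripts. With only the most abundant coding transcript of each gene, Rab7 had a mean exon value of 1564, Rab1a 1007, Rab6a 352 and Rab9 279, which again were ranks 1 to 4. Rab11a moved from rank 7 to rank 12 and Rab40c from rank 20 to rank 32, and both have 6 coding transcripts in the table. Across the 59 genes the number of coding transcripts and the summed value had a Spearman's rho of 0.20, and 0.06 with the value of the leading transcript alone, given as a description.

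Of the 59 members, 39 had a mean exon value of at least 10. Of these 39, 6 were at least 2-fold above the median gene in labeled over unlabeled exon value and 6 at least 2-fold below it, and 27 lay in between. Over the 10348 coding genes past the same minimum the shares were 17.9% above and 11.2% below. The centred log2 ratio of the 39 had a median of −0.04, quartiles of −0.79 and 0.41 and a range from −1.75 to 3.91, beside quartiles of −0.59 and 0.70 over all genes. Without centring, 5 members were above and 12 below, with 11.5% and 24.7% of all genes.

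**Figure D2:**
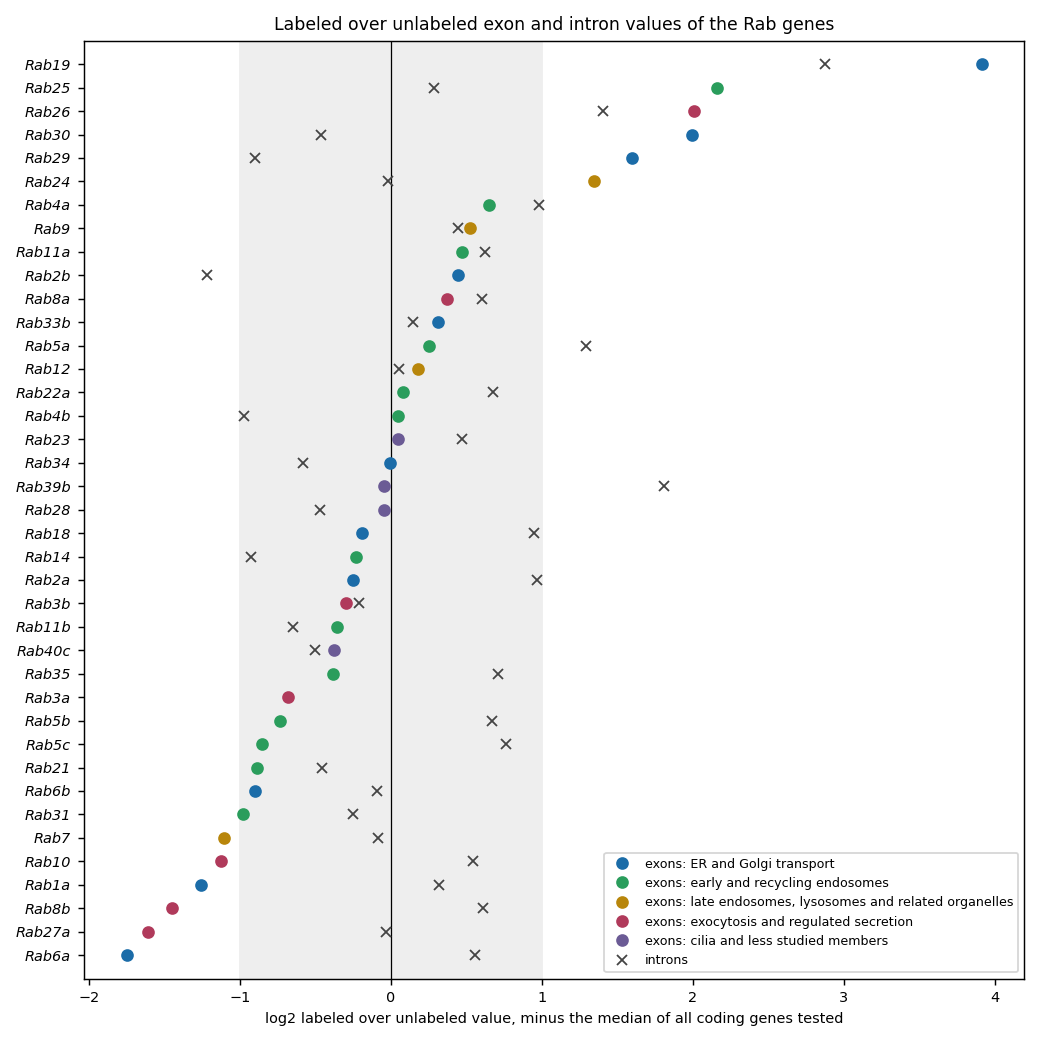
Centred log2 ratio of labeled to unlabeled exon value (coloured circles, coloured by role) and intron value (crosses) for the 39 Rab genes with a mean exon value of at least 10, sorted by exon ratio; 0 is the median of all coding genes tested and the grey band spans 2-fold to either side. Rab6a lies lowest at −1.75 and Rab19 highest at 3.91 for exons, and the crosses do not follow the order of the circles; Rab3a, below the intron minimum, has no cross.

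The most abundant members sat on the lower side. Rab7 had a centred log2 ratio of −1.10 and Rab1a one of −1.26, and these were the only 2 members with a mean exon value of 1000 or more, a level at which 19.0% of all genes were called below and 18.0% above. As a sum over all members, labeled RNA held 8848 and unlabeled RNA 21525, a ratio of 0.411, where the same ratio over all coding genes was 0.757. Rab7 and Rab1a made up 61.1% of the labeled and 73.7% of the unlabeled sum, so this ratio is mainly theirs.

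Among the 14 genes of traffic between endoplasmic reticulum and Golgi, 11 passed the minimum, with 3 above, 2 below and a median of −0.01. The shares over all genes, 17.9% above and 11.2% below, stand beside this count and those of the other roles. Rab6a had the lowest ratio of all 39 members, −1.75, and its 3 coding transcripts lay within 0.01 of each other. Its paralog Rab6b was at 5.83 in labeled and 14.5 in unlabeled RNA, with a centred ratio of −0.90. Rab1a was at −1.26, and its 4 coding transcripts ranged from −1.37 to −1.14. Rab1b, which has 77.6% of its coding bases in common with Rab1a and the same cysteine pair at its end, was measured at 13.2 in labeled and 6.12 in unlabeled RNA. It thus made up 0.781% of the labeled and 0.115% of the unlabeled value of the pair, and its mean was just short of the minimum.

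Rab2a, which acts between endoplasmic reticulum and Golgi, was measured at 184 in labeled and 289 in unlabeled RNA, and its paralog Rab2b at 109 and 106. Their centred ratios were −0.25 and 0.45, both within 2-fold of the median gene. Of the 50-base words of the Rab2b transcript, 77.8% also occur in Gm43766, an annotated gene on the opposite strand (31.6 and 25.5). Whether the counting used strand is not given in the sources used here, and reads of such a stretch cannot be assigned to one of the genes with certainty. Rab18, at lipid droplets and endoplasmic reticulum, had 57.2 and 86.1 with a ratio of −0.19, Rab34 had 92.3 and 122 with −0.01, and Rab33b of the Golgi had 34.1 and 36.2 with 0.31.

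The 3 genes of this group at least 2-fold above the median gene had mean exon values between 10 and 30. Rab19 (chr6:39381175-39390380, plus strand) was at 31.0 in labeled and 2.62 in unlabeled RNA, the highest ratio of the 39 members at 3.91. Rab30, a Golgi Rab, was at 37.5 and 12.4 with a ratio of 1.99. Rab29, a Golgi and lysosomal Rab known as a regulator of the kinase LRRK2, was at 14.9 and 6.42 with a ratio of 1.60. Rab43, grouped with Rab19 and Rab30 by sequence, was at 3.41 and 5.75 and below the minimum, and 90.3% of the words of its transcript are shared with Gm45140 on the same strand. Rab33a was at 2.46 and 0.78.

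Of the 15 genes of early and recycling endosomes, 13 passed the minimum, 1 of them above, none below, and the median was −0.23. The Rab5 proteins, which control the fusion of early endosomes, were all within 2-fold of the median gene. Rab5c was at 226 in labeled and 538 in unlabeled RNA with a centred ratio of −0.85. Rab5b was at 37.3 and 82.1 with −0.73, and Rab5a at 69.4 and 76.7 with 0.26. Rab5c held 67.9% of the labeled and 77.2% of the unlabeled value of the 3 genes, while the share of Rab5a was 20.9% in labeled and 11.01% in unlabeled RNA. Rab5c is here a sum over 4 coding transcripts, whereas Rab5a and Rab5b have 1 each. The leading Rab5c transcript alone was at 89.6 and 224. The 4 coding transcripts of Rab5c past the minimum ranged from −0.95 to −0.51, all below Rab5a.

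The Rab11 genes, which return cargo from recycling endosomes to the surface, also differed. Rab11b was at 306 in labeled and 515 in unlabeled RNA, with a ratio of −0.35, and Rab11a at 297 and 283, with 0.47. As sums over 3 coding transcripts of Rab11b and 6 of Rab11a, their shares of labeled RNA were nearly equal, at 47.9% and 46.6% of the group. In unlabeled RNA the shares were 63.7% and 35.0%. By the leading transcript alone, Rab11b was at 146 in labeled and 249 in unlabeled RNA and Rab11a at 86.8 and 68.4. The near-equality in labeled RNA thus rests on the sums. Rab25, the third of this group and known from epithelia, was far lower at 35.1 and 10.3, with a ratio of 2.16 (chr3:88542029-88548300, minus strand). Of the words of the leading Rab11b transcript, 32.2% recur in other genes, most of them in the processed pseudogene Rab11b-ps2, which was itself at 9.46 and 22.6.

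Rab4a, of rapid recycling from early endosomes, was at 111 in labeled and 93.2 in unlabeled RNA with a ratio of 0.65, and Rab4b at 15.3 and 19.5 with 0.05. For Rab4b 80.3% of the words are shared with the overlapping locus Gm21983 on the same strand (13.6 and 11.3). Rab14, between Golgi and endosomes, was at 94.0 and 146 with −0.23, and Rab21, an integrin-binding Rab, at 32.6 and 79.5 with −0.88. Rab22a was at 22.8 and 28.6 with 0.08, and its paralog Rab31 at 6.38 and 16.8 with −0.98, so that Rab31 was the member nearest to the lower limit without reaching it. Rab35, of the fast recycling route, was at 16.3 and 28.1 with −0.38. Rab15 and Rab17 stayed below the minimum.

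Of 8 genes of late endosomes, lysosomes and related organelles, 4 passed the minimum, with 1 above and 1 below. The 7 coding transcripts of Rab7 all lay below the median gene, from −1.48 to −1.03. Rab7b was at 1.83 in labeled RNA and listed at 0 in unlabeled RNA, where Rab7 had its 10547. Rab7 does share sequence with other loci, since 27.8% of the words of its leading transcript recur elsewhere, mostly in the processed pseudogene Rab7-ps1 and in the antisense gene Gm5577 (245 and 465). Its leading transcript was at −1.07 on this scale, and at −0.99, just inside 2-fold, when centred on the median over the leading transcripts of all genes.

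Rab9, which returns mannose 6-phosphate receptors from late endosomes to the Golgi, was the most abundant member with a ratio above that of the median gene. It was at 622 in labeled and 571 in unlabeled RNA, with a ratio of 0.52, and its 3 coding transcripts ranged from 0.36 to 1.26. Rab9b was at 0.54 in labeled RNA and listed at 0 in unlabeled RNA. Rab24, an autophagy Rab, was at 108 and 56.0 with a ratio of 1.35 and is the only member above the median gene by 2-fold with a mean of 30 or more. Its locus (chr13:55319743-55321946, minus strand) overlaps exons of Prelid1 on the opposite strand, with 43.5% of its words in common, and Prelid1 was at 229 and 243. The part of this overlap in the ratio of Rab24 was not tested. Rab12 was at 47.6 and 55.5 with a ratio of 0.18, and Rab32 and Rab38, the Rabs of melanosomes, were below the minimum.

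The 12 genes of exocytosis and regulated secretion held 3 of the 6 members on the lower side, among 7 past the minimum, with 1 above and a median of −0.68. Rab10, which brings vesicles to the plasma membrane, was at 120 in labeled and 344 in unlabeled RNA with a ratio of −1.13. Rab27a, required for the release of melanosomes and lytic granules, was at 33.3 and 134 with −1.61, and its paralog Rab27b was at 0.26 and 0.07. Rab8b was at 14.0 and 50.8 with −1.45, whereas Rab8a, of which 78.0% of the coding bases are the same, was at 25.4 and 25.9 with 0.38. Rab8a thus had the higher labeled and Rab8b the higher unlabeled value of the pair.

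Rab13, a Rab of tight junctions in the same group, was at 10.8 in labeled and 0.14 in unlabeled RNA, and with a mean under 10 it was left out of the exon counts. Rab26, of secretory granules, was at 23.3 and 7.59 with a ratio of 2.01, while its paralog Rab37 was at 6.21 in labeled RNA and listed at 0 in unlabeled RNA. Of the synaptic vesicle Rabs, Rab3b was at 20.9 and 33.9 with −0.30 and Rab3a at 7.05 and 15.0 with −0.68. Rab3d was at 5.20 and 6.77 and Rab3c at 0.69 and 0.09, both below the minimum.

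The 10 members of cilia or with less studied roles had 4 genes past the minimum, all within 2-fold, with ratios from −0.38 to 0.05. Rab23, a brake on Hedgehog signalling, was at 72.0 in labeled and 91.9 in unlabeled RNA with 0.05. Rab28 was at 43.4 and 59.0 with −0.04, Rab39b at 23.8 and 32.3 with −0.04, and Rab40c at 42.6 and 73.2 with −0.38. The rest were low, with Rab39 at 4.50 and 1.90, Rab36 at 3.37 and 0.90 and Rab40b at 1.74 and 0.17. Over all roles 6 members were listed at 0 in unlabeled RNA (Rab37, Rab7b, Rab42, Rab9b, Rab44 and Rab20), and Rab20 also in labeled RNA. Since a 0 in this table can be a failed estimate, no fold is given for them.

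The transcripts of one gene mostly gave like ratios. Of the 15 genes with 2 or more coding transcripts past the minimum, 13 had all of them on one side of the median gene, and the range within a gene had a median of 0.37 and reached 0.90 in Rab9. These transcripts share exons and are not independent.

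The calls were also read by level and by length. Of the 14 members with a mean exon value from 10 to 30, 5 were above and none below, beside 28.4% and 7.91% of all genes at that level. Of these 5, Rab19, Rab26 and Rab29 were under 10 in unlabeled RNA and reached the minimum only through the library in which they are high, so the count is no support for a relation with level. Among the 12 from 30 to 100, 1 was above and 2 below (17.8% and 9.41% of all genes), and among the 11 from 100 to 1000 none was above and 2 were below (10.8% and 13.8% of all genes). The leading transcripts of the 6 genes above spanned 2.06 to 16.7 kb of genome, with a median of 5.96 kb. Those of the 6 genes below spanned 19.8 to 76.0 kb, with a median of 43.3 kb. Since the 6 above include Rab19, Rab26 and Rab29, these lengths are no support for a relation with length either. Over all genes the medians were 8.44 kb for the 1857 called above, 28.7 kb for the 1159 called below and 21.4 kb for the rest. By these transcripts the Rab groups did not overlap, but this rests on Rab30: its gene spans 103 kb, and another of its coding transcripts, of that length, had a mean exon value of 7.89, beside 8.94 for the leading transcript of 16.7 kb. By the span of the gene, the 6 above ranged from 2.20 to 103 kb and the 6 below from 25.4 to 76.0 kb. The 27 Rab genes within 2-fold ranged, by leading transcript, from 2.06 to 121 kb with a median of 22.7 kb.

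As a description over the 39 genes, Spearman's rho of the centred exon ratio was −0.54 with unspliced length, −0.40 with exonic length, −0.28 with mean exon value and −0.13 with the number of exons. With the share of uridine in the transcript it was −0.28 and with the number of uridines, where 4sU can enter, −0.40. Over all 10348 genes the values were −0.32 with unspliced length, −0.36 with exonic length and −0.23 with mean exon value. All of these points come from the same 2 libraries, and lengths, uridines and levels move together across genes. Members that passed the minimum only through the library in which they are high, such as Rab19, Rab26 and Rab29, are among the 39.

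**Figure D3:**
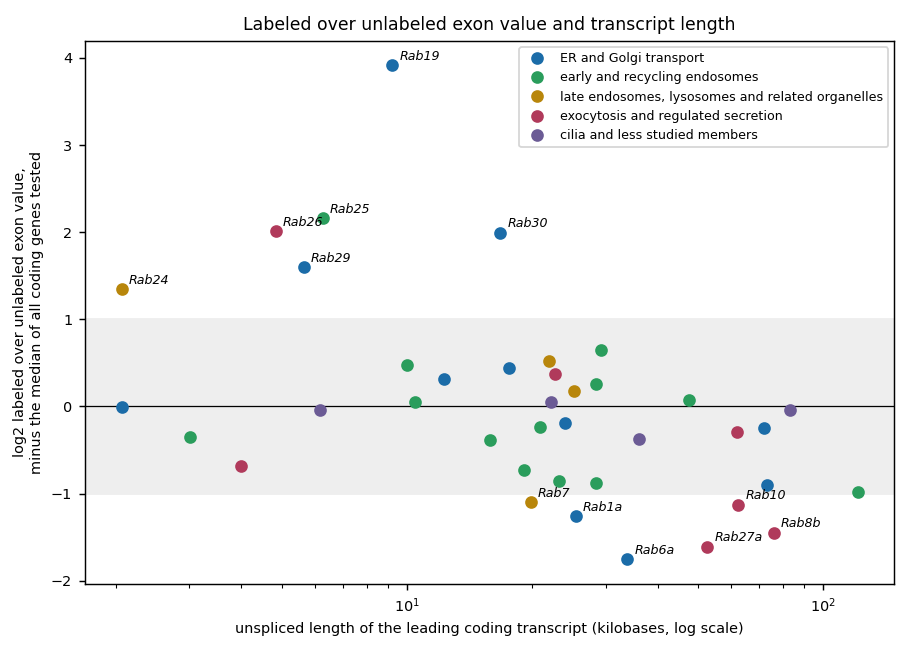
Centred log2 ratio of labeled to unlabeled exon value (vertical axis) against the unspliced length of the leading coding transcript in kilobases (horizontal log axis) for 39 Rab genes, coloured by role, with the 12 called genes named and the grey band spanning 2-fold. By leading transcript the 6 genes above the band are at 2.06 to 16.7 kb and the 6 below it at 19.8 to 76.0 kb. However, the gene of Rab30, drawn at 16.7 kb, spans 103 kb. Rab19, Rab26 and Rab29, above the band, passed the exon minimum only through labeled RNA.

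Introns are carried by RNA not yet spliced. Of 55 members with a mean intron value of at least 1, 5 were at least 2-fold above the median gene and 3 below, beside 9.32% and 9.19% of the 15152 genes tested. The centred log2 intron ratio had a median of 0.26. Rab19 was again highest, with 17.8 in labeled and 0.57 in unlabeled RNA and a ratio of 2.87. Rab39b followed at 11.7 and 0.82 with 1.81, then Rab15 at 12.2 and 1.15 with 1.43, Rab26 at 42.4 and 4.29 with 1.41 and Rab5a at 60.6 and 6.69 with 1.29. Rab19 and Rab39b were under 1 in unlabeled RNA and reached the minimum only through the library in which they are high. The antisense gene Gm15063 (28.4 and 21.3) has 261 exonic bases in the Rab39b intron of 2785 bases. Its part in that intron value was not tested.

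Of the 6 genes below for exons, none was called for introns, and of the 6 above, Rab19 and Rab26 were. Over all genes only 9.32% were called above and 9.19% below for introns, so none among 6 is near that share. The share among all genes called for exons was not taken. Rab7 introns were at 259 in labeled and 75.3 in unlabeled RNA with a centred ratio of −0.09, those of Rab1a at 238 and 52.0 with 0.32 and those of Rab6a at 86.6 and 16.04 with 0.56. Rab10 was at 31.9 and 5.89 with 0.55, Rab27a at 19.4 and 5.35 with −0.03 and Rab8b at 6.21 and 1.03 with 0.61. Exons of opposite-strand genes lie in some of these introns. They are of Gm5577 (245 and 465) in Rab7, Mrpl48 (186 and 77.2) in Rab6a and Rab10os (221 and 164) in Rab10. The part of these genes in the intron values was not tested. Summed over the members, introns were 3.53 times as high in labeled as in unlabeled RNA, against 2.75 over all genes, while exons were at 0.411 and 0.757. The intron sums of the members were 2315 and 656. They include Rab40c (267 and 103), Rab39 (160 and 105) and Rab44 (158 and 36.0), whose introns hold the pseudogenes described below. Across the 39 genes, Rab3a under the intron minimum included, the exon and intron ratios had a Spearman's rho of 0.07. No value over all genes was taken beside it, so whether it is particular to the Rab genes was not tested.

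The intron values of 3 members stood beside a highly expressed pseudogene inside the intron. Rab39 had intron values of 160 in labeled and 105 in unlabeled RNA at exon values of 4.50 and 1.90, and the processed pseudogene Rps6-ps3 lies in its intron (chr9:53689534-53690283, same strand) with exon values of 4983 and 2851. Rab40c had intron values of 267 and 103, and its intron holds Gm10012 (chr17:25901856-25902227, opposite strand) at 4583 and 1726. Rab44, with exon values of 0.08 and 0, had intron values of 158 and 36.0, and Rpl35a-ps3 (chr17:29136972-29137304, opposite strand) lies there at 2900 and 695. The part of these pseudogenes in the intron values was not tested. Rab39 was one of the 3 genes called below for introns (−1.26), with Rab2b at 39.4 and 25.03 (−1.22) and Rab7b at 2.13 and 1.16 (−1.05).

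The study placed each transcript in a plane of the intron to exon ratio of unlabeled RNA (a) and of labeled RNA (b). In its model of synthesis, processing and degradation a labeled ratio of 1 or more, or an unlabeled ratio not below the labeled one, cannot occur. Above the line b = 1/(2 − a) there is 1 solution for the rates, and between this line and the diagonal there are 2 or none. Of the 138 coding Rab transcripts, 98 from 47 genes had all 4 values above 0 and a mean exon value above 1. Their median ratio was 0.427 in labeled and 0.0794 in unlabeled RNA, against 0.570 and 0.111 over all 31386 coding transcripts treated alike, and 91 of the 98 had the higher ratio in labeled RNA.

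Of these 98 transcripts, 18 lay above the line, 54 between line and diagonal, 22 at a labeled ratio of 1 or more and 4 in the last class, where the labeled ratio is under 1 and no higher than the unlabeled one. The shares of all transcripts were 22.5%, 44.2%, 28.2% and 5.10%. Taking the leading transcript of each of the 47 genes, the counts were 11, 26, 8 and 2, with 20.2%, 50.9%, 22.7% and 6.24% of all genes. The 8 with a labeled ratio of 1 or more were those of Rab40c, Rab22a, Rab29, Rab1b, Rab13, Rab43, Rab39 and Rab33a, and the 2 in the last class were those of Rab30 and Rab26. Rab39, Rab13 and Rab29, of the class with a labeled ratio of 1 or more, also had the higher ratio in unlabeled RNA. The lowest unlabeled ratio belonged to Rab7, with 0.0279 in labeled and 0.00295 in unlabeled RNA. Rab11b had the lowest labeled ratio, 0.0277, but an unlabeled ratio of 0.0232, and so lay next to the diagonal. Rab1a had 0.112 and 0.00478.

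**Figure D4:**
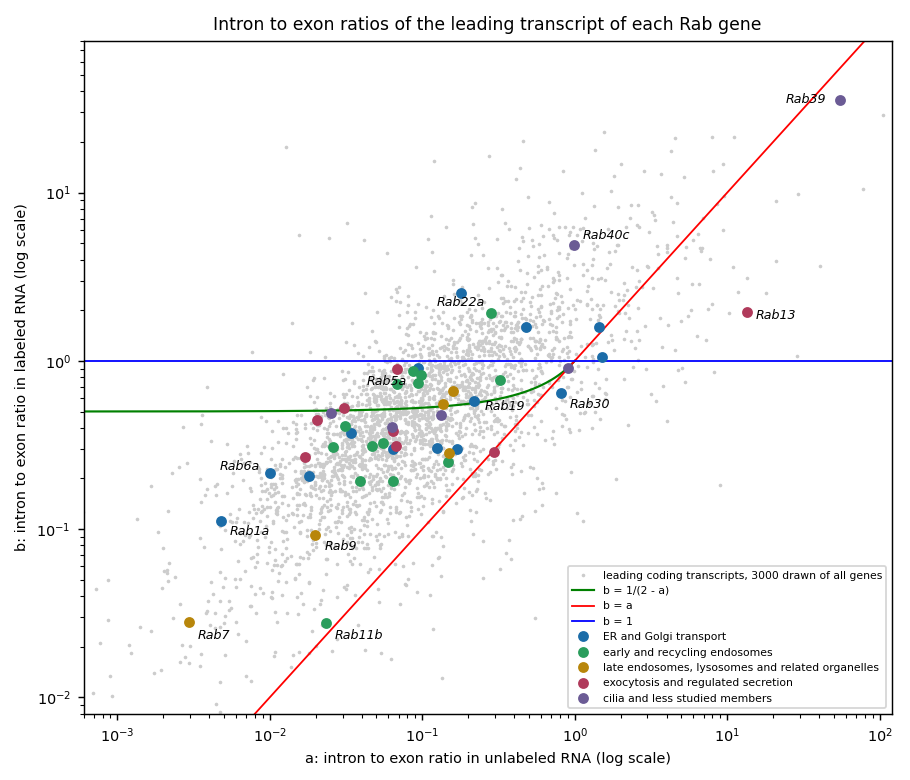
Intron to exon ratio in labeled RNA (vertical log axis) against that in unlabeled RNA (horizontal log axis) for the leading coding transcript of 47 Rab genes (coloured by role) and for 3000 leading transcripts drawn from all genes (grey); the green line is b = 1/(2 − a), the red line the diagonal and the blue line b = 1. Rab7 sits at the lower left, Rab11b next to the diagonal, and Rab39 and Rab13 at the upper right where the unlabeled ratio exceeds the labeled one.

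Rates followed for the 37 leading transcripts compatible with the model. Exactly 1 solution was found for 11, 2 for Rab39b, Rab5b and Rab8b, and none for 23, beside 28.9%, 8.14% and 62.9% of all compatible leading transcripts. Of 2 solutions, the one with the larger ratio of processing to degradation rate was kept. The kept and the other half-life were 29.1 and 0.310 min for Rab39b, 8.32 and 1.70 for Rab5b and 22.6 and 0.826 for Rab8b. The 12 most abundant of the 37, from Rab7 down to Rab11a, were all without a solution, and Rab5a was the first with one. Where a single solution existed, the degradation half-life ran from 3.71 min (Rab19) over 6.81 min (Rab12), 33.3 min (Rab27a) and 71.8 min (Rab35) to 198 min (Rab5a), 265 min (Rab6b) and 344 min (Rab3d). For 5 of these 11, Rab27a, Rab31, Rab5a, Rab6b and Rab3d, the ratios left the range of the model once the labeled values were corrected for leakage of unlabeled RNA. The same correction gave 650 min for Rab35. Reading the second library as total RNA gave 18.1 min for Rab19, 31.1 for Rab12, 149 for Rab27a and 141 for Rab35. The labeled ratios of Rab3d (0.898) and Rab6b (0.904) lay near 1, where the study expects lower precision. Values for transcripts without a solution also turned on the fit. Rab7 had 119 min by the study's distance along one variable, 7.66 min with both variables free and 62.1 min when the second library was read as total RNA. Rab1a had 31.7, 6.55 and 158 min and Rab11b 184, 4.62 and 3.80 min under the same choices, so no order of stability among the abundant Rabs is given.

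The partners of the Rab switch were read in the same way, from lists of genes by textbook role. Over all genes 17.9% were above and 11.2% below. Of the genes that attach the lipid to Rab proteins or extract them from membranes, 11 passed the exon minimum, with 1 above, none below and a median of −0.04. The one above was Rabggtb, the catalytic subunit of Rab geranylgeranyl transferase, at 1109 in labeled and 544 in unlabeled RNA with a ratio of 1.43, and its partner subunit Rabggta was at 93.2 and 63.0 with 0.96. The inhibitor Gdi2 was at 361 and 944 with −0.99. Yipf1 was at 0.54, Yipf2 at −0.74 and Icmt at −0.75.

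Of the exchange factors, 41 passed the minimum, with 6 above, 2 below and a median of −0.07, beside 17.9% above and 11.2% below of all genes. Als2cl was at 21.3 and 5.21 with 2.41, Trappc4 at 48.4 and 12.4 with 2.35 and Hps1 at 28.8 and 7.83 with 2.27. Als2cl and Hps1 were under 10 in unlabeled RNA and reached the minimum only through the library in which they are high. The count of 6 above includes them. Trappc3, which shares the TRAPP tethering complex with Trappc4, was at 28.2 and 93.3 with −1.32, so that subunits of one complex lay at both ends of the list. Trappc11 was at −1.001 and Sbf1 at −0.90.

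Of the GTPase-activating proteins, 31 passed, with 1 above, 4 below and a median of −0.20, beside 17.9% above and 11.2% below of all genes. Sgsm3 was at 23.1 and 91.5 with −1.58, Tbc1d13 at −1.05 and Tbc1d1 at −1.04, and on the other side Tbc1d8 was at 36.3 and 19.3 with 1.31, Tbc1d2b at 0.96 and Tbc1d24 at 0.81. Of the effectors and tethers, 42 passed, with 2 above, 2 below and a median of −0.14, beside the same shares of all genes. Vps41, a subunit of the tether that acts with Rab7 at lysosomes, was at 56.7 and 205 with −1.45, and Rims1 at −1.09 and Appl1, an effector of Rab5, at −0.85. Ppm1h, a phosphatase of Rab proteins, was at 39.8 and 10.6 with 2.29, the golgin Golga1 at 69.0 and 27.8 with 1.71, and Golga2 at 0.74.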

How the data were processed

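Labeled and unlabeled RNA of 1 culture, 1 library each, were analysed. Per the submitters' processing notes and the study's methods, reads not mapping to ribosomal RNA were aligned to exons and introns with STAR 2.5.0 and quantified with RSEM. The deposited values, which the authors call TPM, are treated as a score because each library adds up to 10 times a TPM total. Read counts are not kept, so depth is unknown and the precision of a value cannot be given.

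Transcript types, lengths and sequences come from the GENCODE release M21 (GRCm38), which holds 90.9% of the 121429 transcripts with an exon value. Gene values were summed over coding transcripts, and log2 ratios had a pseudocount of 0.1 and were centred on the median of all genes tested, with minimum mean values of 10 (exons) and 1 (introns). Calls are by size (2-fold) and no test was run. Rates used the study's equations with 4000 grid points. The solver was tested on noise-free data simulated from the model. The true ratio of processing to degradation rate was among the solutions for all 461 simulated points above the line and all 139 below it. This test covers neither the choice between 2 solutions, where the larger ratio was kept, nor the fit where none exists. The part of unlabeled RNA leaking into labeled RNA was set to 0.139 of the unlabeled value, which is percentile 1 of the exon ratio over all genes. Named were the 24 most abundant members, their paralogs, the 3 highest and 3 lowest exon ratios, and the 3 highest and 3 lowest of each partner list. Further members were named after their values were seen. Pra1 and Rab6ip1 of the lists were not matched. The members and lists were chosen with earlier results of these data known. Alternatives were other minimums, pseudocount, centring, transcript choice, leakage and fit. The tools were Python (3.11.15) with the packages pandas (2.3.3), numpy (2.4.6), scipy (1.17.1) and, for plots, matplotlib (3.10.9).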

Additional observations from a re-analysis of the deposited data

How the results depend on the processing

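No paired analysis was possible because each pool has 1 library and no test was made. For exons, the alternatives run (no centring, a pseudocount of 1, minimums of 1 and 100, all annotated transcripts, the leading transcript alone, leakage subtracted) reversed the direction of no called member. Without centring the median was −0.44, with 12 members below (24.7% of all genes), since all genes shift by −0.40. A minimum of 1 gave 13 above and 10 below of 49 (22.7% and 15.4% of all genes), and a minimum of 100 gave 0 above and 2 below of 13 (16.1% and 7.63%), as the 6 members above are all under that level. Rab7 and Rab10 then lay at −0.86 and −0.89. For introns, 8 of 57 members were above with a minimum of 0.1 (10.3% of all genes) and 2 of 28 with a minimum of 10 (6.37%), and the leading transcript alone gave 3 above and 5 below of 51 (9.32% and 9.0%). Without centring the intron median was 2.13, with 49 above and 0 below (88.3% and 0.818% of all genes), and Rab2b, Rab39 and Rab7b turned to 0.65, 0.61 and 0.82. Rab transcripts whose labeled ratio reached 1 went from 22.4% to 7.04% at a minimum of 10 (14.6% of all transcripts), and the share incompatible with the model from 26.5% to 8.45% (17.9%). The median half-life of the 37 compatible leading transcripts was 18.5 min, but 4.54 min with both variables free and 43.5 min with the second library read as total RNA.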

Other observations

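The Rab genes also had transcripts that are not coding, which entered the exon ratios only under the alternative that sums all annotated transcripts. The table held 45 retained-intron, 31 processed and 10 nonsense-mediated decay transcripts of them, beside the 138 coding ones. Retained-intron transcripts made up 8.43% of the summed Rab exon value in labeled and 5.32% in unlabeled RNA, with sums of 892 and 1311. Processed transcripts made up 6.99% and 6.50%, nonsense-mediated decay transcripts 0.945% and 0.908%, and coding transcripts 83.6% and 87.3%. Before centring, the log2 ratio of labeled to unlabeled sums was −0.56 for retained-intron transcripts, −1.28 for coding, −1.16 for nonsense-mediated decay and −1.12 for processed transcripts.

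The intron value of Rab11b depended on the transcript. Over its 3 coding transcripts the centred log2 intron ratio was −0.65, and for the leading transcript alone −2.40.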
